A study of Homo sapiens with 3 samples.

Results

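The 5'UTR peaks of a DDX6 eCLIP experiment in MOLM-13 cells are described here: 7363 stretches of RNA recovered with DDX6 whose first annotation is a 5' untranslated region. Every line of the authors' deposited peak lists with that annotation was taken, whatever its fold or p-value. They made up 4414 of 123298 peaks in the list of immunoprecipitation (IP) replicate 1 (3.58%) and 2949 of 62411 in that of IP replicate 2 (4.73%), or 7363 of 185709 in all. For comparison, the lists held 103562 coding sequence peaks and 38263 3'UTR peaks.

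MOLM-13 is a human acute myeloid leukaemia line, and the labels name no treatment or genetic change. In eCLIP, protein and RNA are cross-linked with ultraviolet light, RNA is trimmed with RNase I, the protein is pulled down with an antibody, here against DDX6, and the attached fragments are sequenced. The series had 2 IP libraries and 1 input library, with 4643494, 1244213 and 7807540 counted reads. Whether the IP libraries are separate cultures is not stated, and the p-values below therefore reflect a spread that may be technical. That spread was shared across the regions or genes of a fit. The spread between a gene's own replicates did not enter its standard error (SE) or p-value. Of the myeloid genes, MPO had 1261 and FLT3 420 exonic input reads, while of the lymphocyte genes CD3E had 0 in every library, MS4A1 had 1, 0 and 0, and CD3D had 15, 3 and 15. Intervals on reads cover counting error only.

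The 5'UTR runs from the cap to the start codon, and the small ribosomal subunit scans it before translation begins. Its structure, upstream open reading frames and terminal pyrimidine run can all set how much protein an mRNA gives. DDX6 is a DEAD-box RNA helicase that works with decapping factors and the CCR4-NOT complex, represses translation and is a core component of P-bodies, cytoplasmic granules of untranslated mRNA.

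No genome of the hg19 build was at hand, so the bases under the peaks are not shown. The RefSeq transcript starts of 7 genes on which the results turn are shown instead, as the first 30 bases of the transcript in build GRCh38.p14. A start was said to carry a pyrimidine run where a C within 2 bases of position 1 was followed by at least 4 of C or T. Capitals mark that run, the hallmark of 5' terminal oligopyrimidine (TOP) mRNAs, which encode ribosomal proteins and translation factors. RPS24 (chr10:78033863-78033892, plus strand), RPL37A (chr2:216498844-216498873, plus strand), RPS3 (chr11:75399518-75399547, plus strand) and NPM1 (chr5:171387849-171387878, plus strand) have such a run. TNF (chr6:31575565-31575594, plus strand), CXCL8 (chr4:73740569-73740598, plus strand) and DDX6 (chr11:118791715-118791744, minus strand) do not.
RPS24: CTCTTTTCCTCCTTggctgtctgaagatag
RPL37A: CTTTCTgggctcggacctaggtcgcggcga
RPS3: CCTTTCCTTTCagcggagcgcggcggcaag
NPM1: CTTTCCCTggtgtgattccgtcctgcgcgg
TNF: agcagacgctccctcagcaaggacagcaga
CXCL8: acaaactttcagagacagcagagcacacaa
DDX6: agacgcgcgcccggcgtctccgggtcgcta
Among these genes, RPS24 and RPL37A had 5'UTRs recovered above input and RPS3 had one recovered below it, so genes with a run lay on both sides.

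The base make-up of the peaks comes from the same authors' annotation as the label, so it cannot test the label. It put 4194 of the 4414 peaks of IP replicate 1 on 5'UTR bases alone, and 2794 of 2949 (94.7%) in IP replicate 2. Even so, 754 (17.1%) and 408 (13.8%) of the peaks in the 2 lists also overlapped an annotated non-coding exon. The label also does not cover all 5'UTR binding, because a peak that spans a start codon was labelled coding sequence. Coding-labelled peaks with 5'UTR bases numbered 2726 and 1626 in the 2 lists, and 1051 and 677 of these lay mostly in the 5'UTR. They held 86876 and 55823 bases of 5'UTR, beside 219616 and 151408 in the 5'UTR-labelled peaks. Peaks were short, with a median width of 44 bases in IP replicate 1 (range 1 to 254) and 48 in IP replicate 2 (range 1 to 234). Joining peaks that touch gave 3946 and 2724 sites, and the widest site was 644 bases, in MBNL1, a splicing regulator. Most genes had a single 5'UTR peak: 65.9% of 2821 genes in IP replicate 1 and 70.4% of 2039 in IP replicate 2.

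Peak folds are the authors' log2 fold of IP over input. The 5'UTR peaks had a median of 2.23 in IP replicate 1 and 2.64 in IP replicate 2. Coding sequence peaks had 2.01 and 2.32, and 3'UTR peaks 1.69 and 2.06, so the 5'UTR median was the highest of the 3 regions in each list. A peak is called enriched below when its −log10 p is at least 3 and its log2 fold is at least 3. By that rule 819 5'UTR peaks (18.6%) were enriched in IP replicate 1 and 540 (18.3%) in IP replicate 2, beside 11.5% and 12.9% of all peaks of the 2 lists. The share was 14.9% in coding sequence in both lists, and 10.6% and 10.8% in 3'UTRs. Many 5'UTR peaks shared the same fold value: the 5 most frequent values accounted for 24.0% and 30.1% of them, beside 22.8% and 30.4% of all peaks. Reads under single peaks were not counted, and whether these values rest on few reads was not tested. No error can be put on the fold of a single peak.

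**Figure D1:**
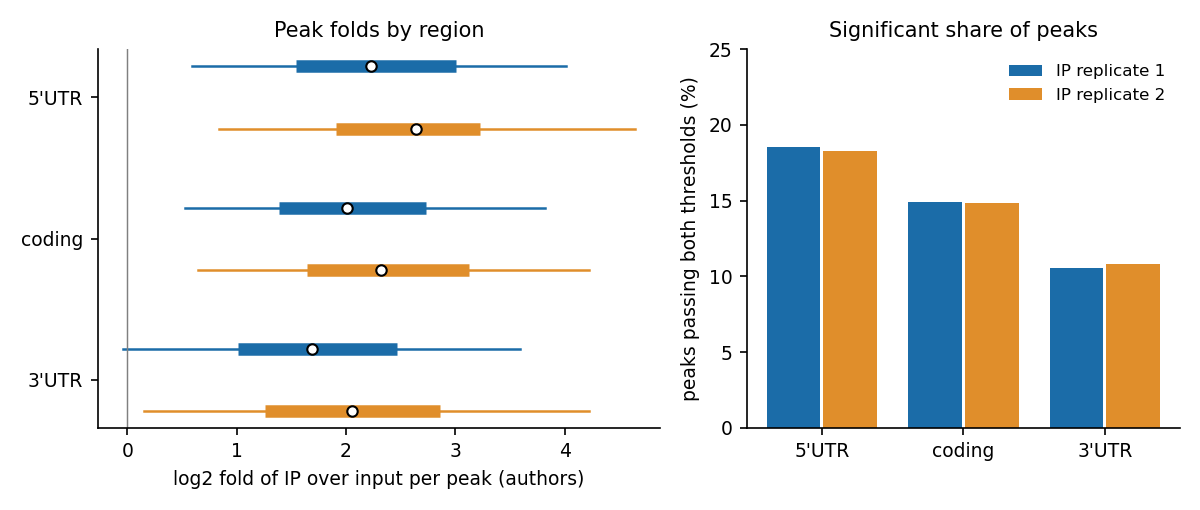
Left, log2 fold of IP over input per peak, from the authors' lists, by region; circles are medians, thick bars the middle 50% and thin lines the 5th to 95th percentile, for IP replicate 1 (blue) and IP replicate 2 (orange). Right, the percent of peaks with −log10 p of at least 3 and log2 fold of at least 3; 5'UTR peaks stand at 18.6% and 18.3%, above coding sequence and 3'UTR peaks in both lists.

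The lists were compared with each other on the same strand. Of the 4414 5'UTR peaks of IP replicate 1, 1716 (38.9%) shared at least 1 base with a 5'UTR peak of IP replicate 2, and 1541 of the 2949 peaks of IP replicate 2 (52.3%) did so in the other direction. The shares in coding sequence were 34.1% and 56.5%, and in 3'UTRs 28.0% and 51.6%. At the level of genes, 1306 had a 5'UTR peak in both lists, 46.3% of those in IP replicate 1 and 64.1% of those in IP replicate 2. Over the 1857 overlapping pairs the folds had a Pearson r of 0.67 and a Spearman rho of 0.63, given as a description, since both folds were taken against the same input. The median gap within a pair was 0.56 on the log2 scale.

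Enriched in both lists were 229 overlapping pairs, and 188 genes had an enriched 5'UTR peak in each list. The pairs with the largest mean fold, 1 per gene, lay in C12orf57, DDX6, HIVEP1, SNRK, ZNF551, HOXC10, RESF1, GPANK1, ZNF507 and GPR183. All coordinates of peaks below are in hg19. HIVEP1, a zinc finger DNA-binding protein, had peaks at chr6:12015760-12015768 with a log2 fold of 6.14 in IP replicate 1 and at chr6:12015759-12015769 with 4.64 in IP replicate 2. SNRK, a kinase, had 5.26 at chr3:43341246-43341262 and 5.45 at chr3:43341253-43341282. HOXC10, a homeobox transcription factor, had peaks with the same ends in both lists, chr12:54378853-54378874, with folds of 5.10 and 4.96. The reads counted over its 5'UTR fell short of the filter of the region test below, so that region was not tested. GPR183, a receptor for oxysterols on immune cells, had 5.89 at chr13:99959598-99959633 and 4.07 at chr13:99959596-99959635. The ZNF551 peaks are labelled for that gene together with AC003006.7, so its 4.01 and 6.23 cannot be given to either gene. The C12orf57 pair, at 5.02 and 6.12, lay on an exon of RNU7-1, the U7 small nuclear RNA that serves histone mRNA processing.

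**Figure D2:**
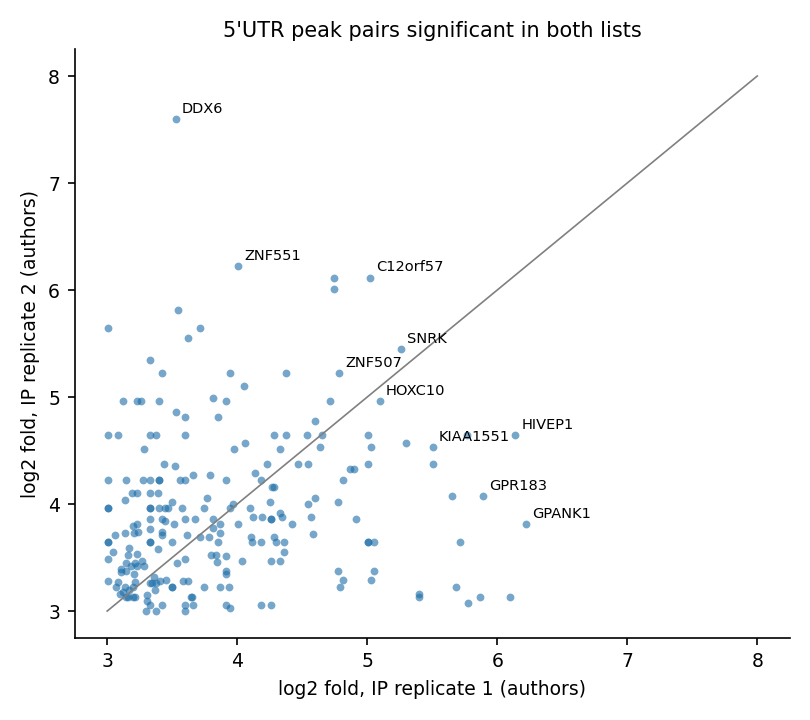
Log2 folds (authors' values) of the 229 overlapping 5'UTR peak pairs that passed both thresholds in each list, IP replicate 1 on the horizontal and IP replicate 2 on the vertical axis, with the diagonal as the line of equal folds. The 10 genes with the largest mean fold are named (KIAA1551 is RESF1); DDX6 has the highest value in IP replicate 2, at 7.60.

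DDX6's own mRNA carried such peaks. Its 5'UTR had 229 and 53 reads in the IP libraries and 19 in the input; further triplets of reads follow this order. Both IP libraries were above the input after scaling, and the log2 fold was 3.60 (SE 0.46), or 12.1-fold, with an adjusted p of 2.14e-13 by edgeR's quasi-likelihood test. All 3 of its 5'UTR peaks in IP replicate 1 and all 4 in IP replicate 2 were enriched. They fell in 2 clusters that both lists share. In the first, a peak at chr11:118657062-118657226 had a fold of 3.53 in IP replicate 1 and one at chr11:118657174-118657228 had 7.60 in IP replicate 2. In the second, chr11:118661811-118661822 had 3.62 and chr11:118661807-118661842 had 5.55. Against the 3'UTR of the same mRNA, with 1037, 202 and 624 reads, the 5'UTR fold was larger by 2.96 (SE 0.82, adjusted p = 0.0130). That call was lost without the filter on low counts, at an adjusted p of 0.0521. Against its coding sequence, with 563, 101 and 100 reads, the 5'UTR was larger by 1.25 (SE 0.70), which did not pass (adjusted p = 0.396).

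RESF1, a regulator of retroelement silencing, had 11 5'UTR peaks in the first list and 8 in the second, and every one was enriched. They covered 4 places: one near chr12:32112384-32112425 with folds of 5.78 and 3.07, one from 32113711, one around chr12:32123225-32123259, and one from 32133812. At chr12:32123225-32123259 the fold was 5.50 in IP replicate 1, and 4.38 for the IP replicate 2 peak that shares most bases with it. The 5'UTR reads of RESF1 numbered 1102, 177 and 62, a log2 fold of 3.95 (SE 0.40, adjusted p = 1.36e-19). AZIN1, an inhibitor of antizyme in polyamine control, had the most 5'UTR peaks, 15 and 6, of which 9 and 1 were enriched. Its 880, 188 and 216 reads gave a log2 fold of 1.99 (SE 0.35, adjusted p = 7.99e-08). ATXN1 (11 and 7 peaks) and the haematopoietic transcription factor RUNX1 (12 and 6) also had many peaks at lower folds, with region folds of 1.61 (SE 0.45) and 1.45 (SE 0.34), both called. With exonic regions alone neither was called, at 0.87 (adjusted p = 0.139) and 0.71 (0.0676), and ATXN1 was not called with DESeq2 (0.0665). Many peaks did not always come with recovery of the region: C19orf48P had 10 and 7 peaks and none enriched, and its reads of 242, 76 and 277 gave a log2 fold of 0.02 (SE 0.32, adjusted p = 0.964). MBNL1 had 290 bases under peaks of both lists, yet its 725, 185 and 621 reads gave 0.30 (SE 0.32, adjusted p = 0.439), although it was called at 0.94 with library size alone.

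The authors also deposited a list of 1587 reproducible peaks, of which 125 (7.88%) matched 5'UTR peaks, in 72 genes. Their log2 fold in the authors' deposited table reached 5.91. CXCL8, the neutrophil chemokine interleukin-8, held the 4 highest values, from 5.75 to 5.91, at adjoining peaks between chr4:74606290 and 74606359. TNF followed with 5.67, then DDX6 with 5.63, C12orf57 with 5.58, HIVEP1 with 5.39 and the monocyte chemokine CCL2 with 5.26. How the authors combined the libraries in that list is not given in the sources used here.

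Reads over whole 5'UTRs, counted per gene whether or not a peak was called, gave a second view. The 5'UTR took 158130 of all counted reads in IP replicate 1 (3.41%; exact Clopper-Pearson 95% interval 3.39 to 3.42%), 48325 in IP replicate 2 (3.88%; 3.85 to 3.92%) and 111406 in the input (1.43%; 1.42 to 1.44%). The IP mean of 3.64% ± 0.338 (SD, n = 2) was 2.55 times the input share. Of exonic reads alone the shares were 5.04%, 6.21% and 4.65%, a ratio of 1.21. With 1 input library there is no test of either ratio.

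Of 2025 5'UTR regions with at least 10 reads in at least 2 libraries, 672 (33.2%) were higher in the IP libraries than in the input and 91 (4.49%) were lower (edgeR quasi-likelihood test, adjusted p under 0.05). Over all 28825 regions in the same fit, introns included, 24.5% were higher and 31.9% lower. The median log2 fold of the tested 5'UTRs was 0.74, 0.57 in IP replicate 1 and 0.83 in IP replicate 2, between 1.02 for coding sequences and 0.28 for 3'UTRs. These levels depend on scaling: with exonic regions alone the 5'UTR median was 0.014, with 268 higher and 183 lower, and with library size alone it was 1.38, with 1085 and 23.

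The largest 5'UTR folds included short mRNAs of the inflammatory response. TNF, the central inflammatory cytokine, had 1977, 378 and 42 5'UTR reads, a log2 fold of 5.44 (SE 0.47, adjusted p = 4.12e-27). IER3, an immediate early gene, had 304, 74 and 5 reads and a log2 fold of 5.93 (SE 0.55), and CXCL8 had 385, 66 and 7 reads and 5.60 (SE 0.52). In all 3, both IP libraries stood far above the input, and the smallest fold of a single replicate was 4.81, for CXCL8 in IP replicate 2. CCL2 had 166, 30 and 9 reads (4.08, SE 0.52), and BTG2, an antiproliferative immediate early gene, had 129, 42 and 7 (4.40, SE 0.55). For several of these the peak that carried the signal is labelled coding sequence: IER3 had one at chr6:30712248-30712321 with a fold of 7.44, of which 25 bases are 5'UTR, and BTG2 one at chr1:203274653-203274760 with 4.56 and 71 such bases. CXCL8 likewise had no 5'UTR-labelled peak in IP replicate 2, where 90 of the 92 bases of its coding-labelled peak (fold 5.31) were 5'UTR.

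RPL37A, a ribosomal protein of the large subunit, had the largest fold among the better covered regions, with 649, 498 and 21 reads and a log2 fold of 5.99 (SE 0.49, adjusted p = 9.00e-31). Its replicates differed, at 4.87 and 6.43, and both were far above the input. Ribosomal protein genes have many near-identical processed copies, so counts of this family are uncertain where reads could be split among them. The death receptor gene TNFRSF10B had 85 and 34 IP reads against 3 in the input, a ratio of 33.6 (95% counting interval 11.2 to 165). For the zinc finger gene ZNF92, with 51 and 22 against 3, the ratio was 20.6 (6.77 to 102), and FBXO5, an inhibitor of the anaphase-promoting complex, had 62, 32 and 4 reads and a log2 fold of 4.45 (SE 0.66).

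**Figure D3:**
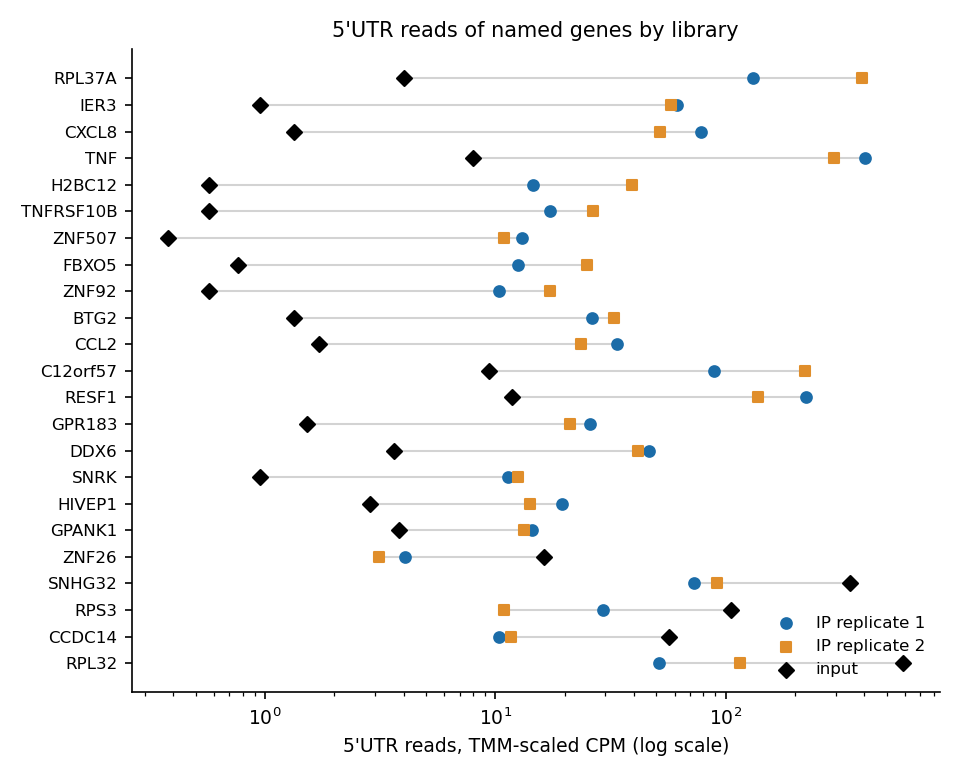
5'UTR reads as TMM-scaled CPM (log axis) of named genes in IP replicate 1 (circles), IP replicate 2 (squares) and the input (diamonds), ordered by log2 fold. In the upper 18 genes both IP libraries lie to the right of the input; in the lowest 5, ZNF26, SNHG32, RPS3, CCDC14 and RPL32, both lie to the left.

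Regions below the input were fewer, and 7 of the 91 lay in genes with a 5'UTR peak on a small RNA exon. RPL32 had 253, 148 and 3088 5'UTR reads, a log2 fold of −2.87 (SE 0.33), and RPS3 had 144, 14 and 551, with −2.23 (SE 0.32). SNHG32, with 359, 117 and 1816 reads, was at −2.09 (SE 0.32). All 3 host small nucleolar RNAs, which guide chemical changes on ribosomal RNA, and most of their 5'UTR peaks with a fold below 0 lie on such exons, though not all of those of RPL32. CCDC14 (51, 15 and 298 reads; −2.39, SE 0.36) and ZNF26 (20, 4 and 85 reads; −2.08, SE 0.48) had no 5'UTR-labelled peak. In the peak lists, 28 5'UTR peaks of IP replicate 1 and 18 of IP replicate 2 lay on small RNA exons. These were 26 of the 77 peaks with a fold below 0 in IP replicate 1 (33.8%) and 14 of 34 in IP replicate 2 (41.2%), but 2 of 4337 and 4 of 2915 of the others. The part of small RNA reads in these low values was not tested. The other 84 lower regions lay in genes with no such peak. With DESeq2, RPS3 and ZNF26 lost their calls, at adjusted p-values of 0.0594 and 0.0718.

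Comparing the 5'UTR with other parts of the same gene cancels the scaling of the libraries. It also cancels the level of the mRNA where the reads of both regions come from that mRNA. Whether they do was not tested, and some 5'UTRs hold small RNA exons. Of 1971 genes, the IP-to-input fold of the 5'UTR was larger than that of the coding sequence in 15 (0.761%) and smaller in 67 (3.4%) at an adjusted p under 0.05 in edgeR's interaction test. The median difference was −0.28 on the log2 scale (−0.39 and −0.08 by replicate), and 39.1% of genes were above 0. Against the 3'UTR, 95 of 1831 genes (5.19%) had a larger 5'UTR fold and 24 (1.31%) a smaller one, with a median of 0.51 (0.36 and 0.85) and 66.3% above 0. The calls depended on the filter on low counts: without it 4 of the 15 and 20 of the 67 kept their call against coding sequence, and 6 of the 95 and 2 of the 24 against the 3'UTR. Read counts thus put the 5'UTR between coding sequence and 3'UTR, whereas the authors' peak folds put it above both. Within genes, the median 5'UTR peak exceeded the median coding peak in 56.7% of 2584 genes in IP replicate 1 and 61.3% of 1805 in IP replicate 2, by a median of 0.17 and 0.29. Against 3'UTR peaks these shares were 73.7% and 73.2%. The sign against coding sequence therefore differed between peaks, which are stretches picked for height, and whole regions.

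RPS24, of the small ribosomal subunit, had 147, 70 and 14 5'UTR reads beside 1430, 286 and 1179 in the coding sequence. The 5'UTR was high in both IP libraries while the coding sequence was near the input, a difference of 3.69 (SE 0.73, adjusted p = 0.000156). Histone genes led the same list. H2BC12 had 72, 50 and 3 5'UTR reads, an IP to input ratio of 34.4 (11.5 to 169), beside 897, 216 and 721 coding reads. H4C3 had 43, 13 and 3, a ratio of 15.8 (5.13 to 78.9), beside 499, 125 and 313. H2BC11 had 30, 14 and 0 5'UTR reads, so that its IP levels were at least 10.7-fold and 19.2-fold higher than a floor of 3 input reads. EP400, a chromatin remodeller, had 30, 12 and 1, a ratio of 35.5 (6.04 to 1436). Its difference from the coding sequence was not called without the filter on low counts (adjusted p = 0.179) or with DESeq2 (0.20), and that of H4C3 was lost in the same ways (0.100 and 0.0828). Histone copies are nearly identical, and the split of reads among them is uncertain.

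At the other end stood CCDC14, whose 5'UTR was below the input while its coding sequence, with 678, 139 and 112 reads, was above it, a difference of −4.93 (SE 0.67, adjusted p = 6.66e-10). DYRK1A, a kinase, had 12, 4 and 32 5'UTR reads beside 690, 193 and 109 coding reads, a difference of −3.99 (SE 0.77). U2SURP, a splicing-associated protein, had 17, 4 and 74 beside 994, 225 and 289 (−3.88, SE 0.73). LONRF1 and ZNF140 followed at −3.66 (SE 0.68) and −3.82 (SE 0.85). By region counts, the coding sequence of each of these genes was high in both IP libraries and the 5'UTR was not. U2SURP still had coding-labelled peaks that lay mostly in the 5'UTR. They had 52 of 85 bases there in IP replicate 1 (log2 fold 3.50) and 53 of 99 in IP replicate 2 (3.41). ZNF140 had such a peak in IP replicate 1, with 26 of 28 bases in the 5'UTR and a fold of 2.01, which was not enriched. For RPL37A, with 34742, 8383 and 1601 coding reads, the 5'UTR and the coding sequence were both high. Their difference, 1.33 (SE 0.82), did not pass edgeR's interaction test (adjusted p = 0.452). Against the 3'UTR, RPL37A had the largest positive difference, 5.42 (SE 0.87, adjusted p = 1.03e-06), with only 232, 29 and 143 3'UTR reads. CCDC14 (−4.50, SE 0.78), TMTC2 (−3.93, SE 0.93) and ZCCHC8, of the nuclear exosome targeting complex (−3.74, SE 0.99), were the most negative. The ZCCHC8 call was lost without the filter (adjusted p = 0.0521) and with DESeq2 (0.0713).

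**Figure D4:**
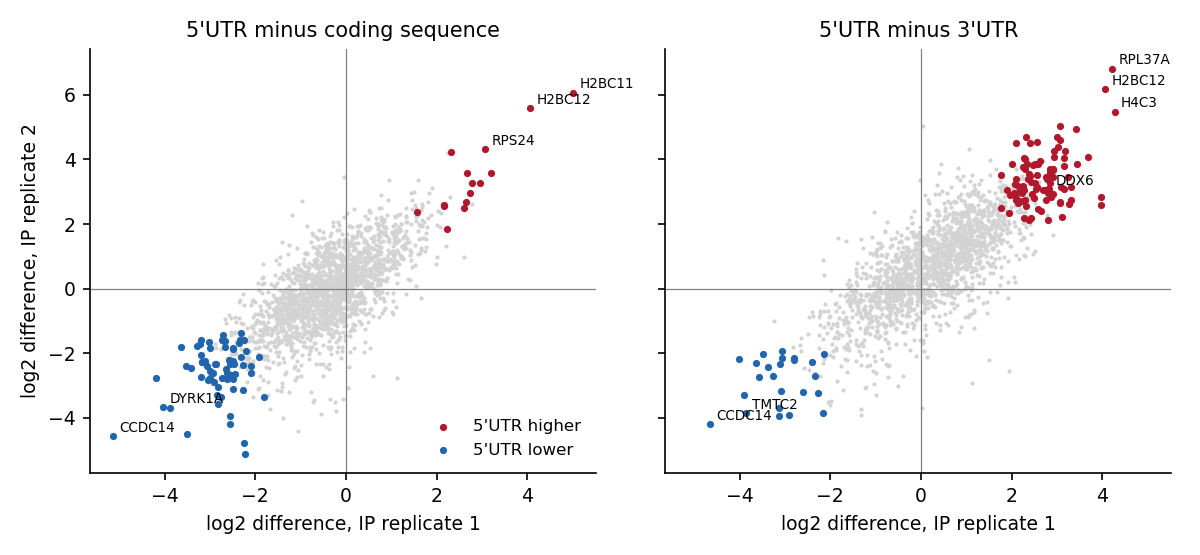
Difference in log2 IP-to-input fold between the 5'UTR and the coding sequence (left) or 3'UTR (right) of the same gene, IP replicate 1 on the horizontal and IP replicate 2 on the vertical axis. Coloured points passed edgeR's test (red, 5'UTR larger; blue, smaller): 15 and 67 genes on the left, 95 and 24 on the right.

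Gene lists were read against the 5'UTR background of 33.2% higher, 4.49% lower and a median of 0.74. Over all 2025 tested 5'UTRs, 268 were higher and 183 lower with exonic regions alone, and 277 and 8 with DESeq2. List counts under those settings are to be read against these numbers. Immediate early and inflammatory genes stood highest: 18 of 20 tested members were higher and none lower, with a median of 2.60, and 16 were higher with exonic regions alone. Besides TNF, IER3 and CXCL8 these included CCL3 (94, 33 and 7 reads; log2 fold 3.99, SE 0.57) and the transcription factor gene JUNB (274, 63 and 43; 2.69, SE 0.40). The median difference between the 5'UTR and the coding sequence was −0.09, and none of 19 members was called in either direction. The inflammatory list was partly chosen from genes seen in these libraries, so its direction is not independent evidence.

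mRNAs with regulatory upstream open reading frames, which hold back translation of the main frame, had 9 of 14 members higher, none lower and a median of 1.80, with 7 higher with exonic regions alone or with DESeq2. PPP1R15B, a phosphatase subunit of the integrated stress response, had 84, 39 and 13 reads (3.15, SE 0.51). AMD1, an enzyme of polyamine synthesis, had 338, 58 and 42 (2.86, SE 0.40), and TXNIP, a brake on glucose uptake, had 313, 98 and 62 (2.55, SE 0.38). All 3 TXNIP peaks of IP replicate 1 and both of IP replicate 2 were enriched, near chr1:145438497-145438625. Among mRNAs with long or structured 5'UTRs 8 of 12 were higher, but 3 were with exonic regions alone and 5 with DESeq2. They included MYC, the proliferation factor, at 631, 203 and 130 reads (2.52, SE 0.36) and the growth factor VEGFA at 211, 46 and 59 (1.83, SE 0.39). For neither list was any 5'UTR called different from its coding sequence. Of the ferritin mRNAs, which carry an iron-responsive element, FTH1 (338, 97 and 276 reads; 0.45, SE 0.32) and FTL (501, 157 and 747; −0.35, SE 0.31) did not pass, but with library size alone FTH1 was called higher and with exonic regions alone FTL was called lower.

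Replication-dependent histone genes, whose mRNAs have short 5'UTRs and no poly(A) tail, had 27 of 33 members higher, none lower and a median of 1.42, although 1 alone had a 5'UTR-labelled peak. With exonic regions alone 13 were higher and with DESeq2 16. H2BC4 had 140, 30 and 11 reads (3.64, SE 0.51), and its 5'UTR exceeded its coding sequence by 2.58 (SE 0.75, adjusted p = 0.0222); 4 histone genes passed that test. The H2BC4 call was lost without the filter on low counts (adjusted p = 0.0752). Zinc finger genes named ZNF had 28 of 63 higher and 3 lower, with a median of 1.22, and 16 and 4 with exonic regions alone and 13 and 0 with DESeq2. ZNF121 (135, 22 and 10 reads; 3.60, SE 0.52), ZNF24 (110, 29 and 10; 3.54, SE 0.53) and ZNF217 (285, 53 and 24; 3.46, SE 0.44) were among the higher ones. With a filter of 30 reads, 8 members were tested and 2 were higher. Their median was then 0.53, below the 0.93 over all 5'UTRs in that setting. Against coding sequence, under the main filter, none of 60 was larger and 9 were smaller, with a median of −0.78. This family held 241 and 138 of the 5'UTR peaks, of which 90 and 39 were enriched.

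Ribosomal protein 5'UTRs were spread widely. Of 55 tested, 13 were higher and 9 lower, with a median of −0.01 that moved from −0.75 with exonic regions alone to 0.63 with library size alone. RPS29 (291, 166 and 96 reads; 2.31, SE 0.36) stood beside RPS24 on the high side. RPL27A (246, 182 and 1743; −1.85, SE 0.32) and RPL17 (219, 39 and 516; −1.34, SE 0.31), both snoRNA hosts, stood with RPL32 and RPS3 on the low side. Against their 3'UTRs, 8 of 43 ribosomal protein 5'UTRs were larger and none smaller, with a median of 1.18. The 56 members with a peak had 124 and 98 peaks, but 2 and 1 of these were enriched. Translation factors and other TOP mRNAs had 6 of 18 higher and 2 lower (median 0.37), and with exonic regions alone 2 higher and 3 lower (median −0.37). NPM1, the nucleolar chaperone often mutated in acute myeloid leukaemia, had 341, 135 and 96 reads (2.22, SE 0.36), whereas the elongation factor EEF1D had 139, 55 and 515 (−1.52, SE 0.32).

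P-body and mRNA decay factors had 9 of 20 members higher, none lower and a median of 1.24, with 5 higher with exonic regions alone or with DESeq2. DDX6 led, followed in order of p by CNOT1, the scaffold of the CCR4-NOT deadenylase, with 185, 33 and 30 reads (2.51, SE 0.43), and the helicase HELZ with 75, 20 and 7 (3.50, SE 0.60). The translational regulator CPEB4 (74, 18 and 11; 2.79, SE 0.56) and TOB1, which recruits CCR4-NOT (88, 27 and 19; 2.39, SE 0.49), were also higher. CNOT2 and CNOT3, subunits of the same complex, were at −0.08 (SE 0.42) and −0.80 (SE 0.46) and did not pass, but both 5'UTRs were called smaller than their coding sequences. With a filter of 30 reads, 6 P-body and decay factors were tested and 3 were higher. Their median was then 0.96, beside 0.93 over all 5'UTRs in that setting. Chromatin modifiers lay near the background share of 33.2%, with 12 of 34 higher (35 genes with a peak, median 0.94), 3 with exonic regions alone and 4 with DESeq2. With no filter beyond 1 read 4 members were higher, and their median was 0.66 beside 0.69 over all 5'UTRs in that setting. They were led by the demethylase-family gene JMJD1C with 499, 126 and 70 reads (2.90, SE 0.38). All 5 of its peaks in IP replicate 1 and all 4 in IP replicate 2 were enriched. The remodeller gene CHD7 had 95, 22 and 8 reads (3.57, SE 0.57). Regulators of myeloid leukaemia had 9 of 17 higher and 1 lower, and 3 higher with exonic regions alone and 5 with DESeq2. The higher ones included ZEB2 (322, 111 and 104; 1.92, SE 0.36) and ID2 (69, 12 and 12; 2.42, SE 0.56) beside MYC. Respiratory chain subunits (2 of 14 higher, median 0.66) and proteasome subunits (1 of 6, median 0.70) lay near or below the background.

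**Figure D5:**
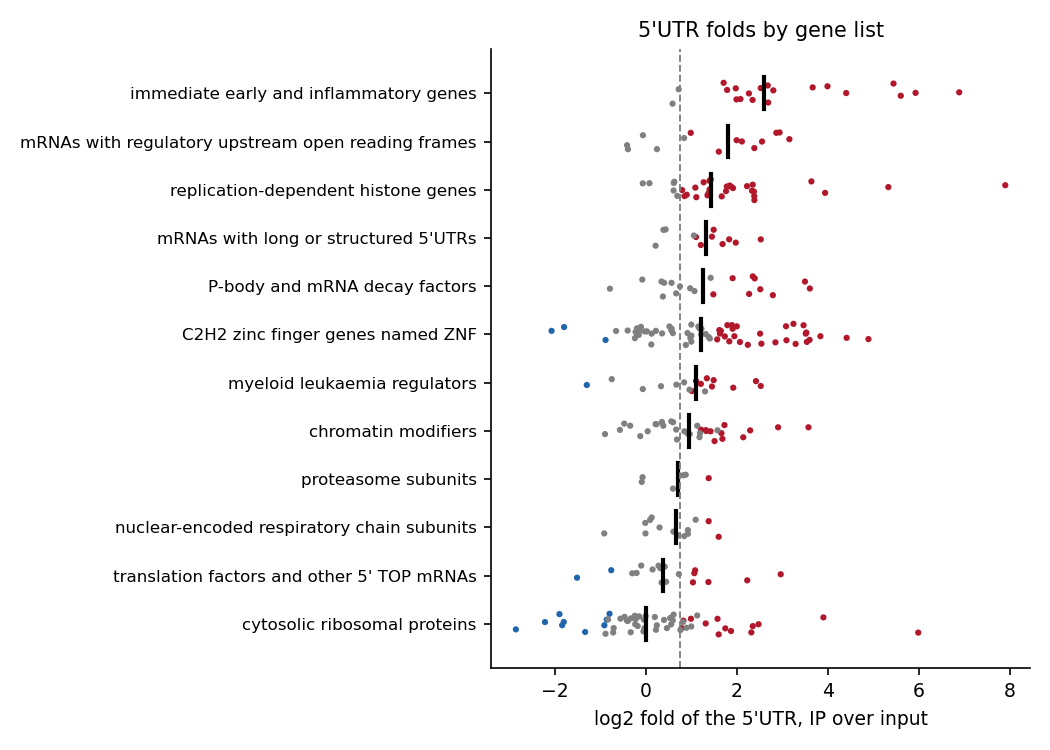
Log2 fold of the 5'UTR (IP over input) of each tested member of 12 gene lists; red and blue points passed edgeR's test as higher and lower, black bars are list medians and the dashed line is the median of all 2025 tested 5'UTRs, 0.74. Immediate early and inflammatory genes have the highest median, 2.60, and cytosolic ribosomal proteins the lowest, −0.01. The fitted values of H2BC11 and CXCL2, which have 0 input reads, depend on the default prior count of edgeR's fit.

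Peaks and region counts come from the same reads, so their accord is no independent support. Of 149 tested genes with an enriched 5'UTR peak in both lists, 135 were higher and 0 lower by region count. Among 315 with one in a single list 207 were higher and 2 lower, and among 1038 with peaks that were never enriched 217 were higher and 51 lower. A further 523 tested genes had no 5'UTR-labelled peak, and 113 of them were higher.

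Transcript start sequences were matched by symbol for 1658 of the 2025 tested genes (81.9%). A pyrimidine run at the start was found in 16.6% of these and in 11.1% of 15843 protein-coding RefSeq starts. Of the 275 tested genes with the run, 35.3% were higher, with a median of 0.71, and of the 1383 without it 32.0% were, with a median of 0.74. The 5'UTRs were also grouped by the GC content of the first 50 transcribed bases. Of 4 groups of similar size, 41.1% were higher in that with least GC (20 to 58%), 31.5% and 32.2% in the middle groups and 24.0% in that with most GC (74 to 92%). The medians were 0.94, 0.75, 0.77 and 0.53. RefSeq gives 1 start per gene, which need not be the start used in MOLM-13 cells.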

How the data were processed

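Per the labels' protocols, MOLM-13 cells were cross-linked, and DDX6 was immunoprecipitated by eCLIP; 2 IP libraries and 1 input were sequenced. The submitters' processing notes name cutadapt, STAR, UMI-tools, SAMtools and hg19. The counter, its annotation and strand handling, the peak caller and all versions are not stated there. The deposited tables hold unnormalised counts of reads for each gene's regions. The authors' deposited peak lists give each peak a −log10 p, capped at 400 in the values, and a log2 fold of IP over input.

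Members were taken by their first annotation. Overlap required at least 1 base on the same strand. Regions with at least 10 reads in at least 2 libraries were tested with edgeR 4.0.16 (glmQLFit, glmQLFTest, TMM over exonic and intronic regions, R 4.3.3), with Benjamini-Hochberg adjustment over all 28825 regions. Differences within a gene were tested as the interaction of region with IP. Each fit had 1 residual degree of freedom among libraries, the single input was taken to vary as the IP libraries do, and the common dispersions were 0.0356, 0.0469 and 0.0633. The prior degrees of freedom were infinite in each fit, so the quasi-likelihood dispersion was fully shared and not estimated gene by gene. A prior count of 2 was added for IP-to-input folds by replicate. For within-gene differences by replicate a smaller constant was added to each count. Counts were simulated with 67, 67 and 66 regions or genes changed 2, 4 and 8-fold. The simulated dispersion was fixed, below those of the 2 fits within a gene. The region test recovered 2.99%, 74.6% and 100% of these changes. The test against coding sequence recovered 2.99%, 34.3% and 86.4% (1971 genes), and that against the 3'UTR 4.48%, 23.9% and 84.8% (1831 genes). In the data far more of the 28825 regions were called (7054 higher and 9183 lower), so the simulated rates need not hold there. DESeq2 1.42.0, other filters and other scalings were alternatives. Of 29754 Ensembl identifiers, 28576 matched the symbol table.

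The members, the gene lists and the tests were chosen with earlier results of these data known. Genes were named by rank: DDX6; the 10 largest and 5 smallest called 5'UTR folds above the median read level; the 5 and 5 (coding sequence) and 3 and 3 (3'UTR) most extreme called differences; the 10 peak pairs with the largest mean fold; the 5 genes with most peaks and with most shared bases; the leading reproducible peaks; and, from each list, at most 3 members ranked by p. Other genes named were chosen after their values were seen. Some results for single genes are not reported here.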

Additional observations from a re-analysis of the deposited data

How the results depend on the processing

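No paired analysis was possible because the input is a single library with no replicate number. The counts of 5'UTR regions above and below input (672 and 91, median 0.74) were 262 and 26 with a filter of 30 reads, 277 and 8 with DESeq2, 1085 and 23 with library size alone (median 1.38), and 268 and 183 with exonic regions alone (median 0.014). All 268 and all 277 higher calls were among the 672. With no filter beyond 1 read 155 were lower, and with intron classes and tRNAs as separate rows, chosen after seeing the data, 45 were lower (median 1.12). Leaving out either IP library gave medians of 0.57 to 0.83.

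Against coding sequence (15 and 67), no filter gave 4 and 36, DESeq2 6 and 18, and a filter of 30 reads 42 lower; the median without either IP library was −0.39 to −0.08. Against the 3'UTR (95 and 24), no filter gave 6 and 2, DESeq2 49 and 9, and 30 reads 8 lower, with medians of 0.36 to 0.85. Enriched peaks numbered 2011 and 1050 at a log2 fold of at least 1, and 260 in IP replicate 2 at a −log10 p of at least 5. Shared peaks were 22.6% and 33.8% with an overlap of 50% of both peaks, and 26.6% and 34.8% among enriched peaks. The ratio of read shares was 1.21 over exonic reads and 2.39 to 2.72 without either IP library.

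No called value of a named gene, and no median over all tested genes, changed direction under the alternatives run. The median of ribosomal proteins (−0.01) was above 0 with library size alone (0.63), and that of translation factors and other TOP mRNAs (0.37) below 0 with exonic regions alone (−0.37). Each named gene was compared with its main result under each alternative. For IP against input, 545 of these comparisons left its status, called or not called, unchanged, 12 gained a call and 24 lost it. For coding sequence these were 300, 1 and 11, and for the 3'UTR 278, 6 and 12. The unchanged ones include genes never called. They also include results without either IP library, which have no p-value and were compared by direction alone. At this depth and number of libraries, and at the lower simulated dispersion, the tests within genes recovered 2.99% and 4.48% of 2-fold changes.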

Other observations

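The following are 4 of the 95 genes whose 5'UTR fold exceeded that of the 3'UTR, chosen after their values were seen; without the filter on low counts 6 of the 95 kept that call. SYNCRIP had 273, 93 and 41 5'UTR reads beside 1709, 278 and 1373 3'UTR reads, a difference of 2.93 (SE 0.85, adjusted p = 0.0181 by edgeR's interaction test). SFPQ had 122, 59 and 34 beside 451, 97 and 536 (2.63, SE 0.73), and SRSF3 181, 88 and 98 beside 467, 100 and 937 (2.45, SE 0.72). In these 3 genes the 5'UTR stood above the input in both IP libraries. The myeloid granule gene MPO had 29, 12 and 15 beside 227, 57 and 558 (2.53, SE 0.81).

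Chromosome 8 held 228 5'UTR peaks in IP replicate 1 and 207 in IP replicate 2, a ratio of 0.908. The next highest ratios were 0.811 on chromosome 13, 0.796 on chromosome 20, 0.779 on chromosome 10 and 0.756 on chromosome 5. The ratio on chromosome 1 was 0.658 and on chromosome 19 it was 0.609, and over peaks of all regions chromosome 8 had 0.520. AZIN1 alone took 15 and 6 of the 5'UTR peaks on chromosome 8, a lower ratio than that of the chromosome as a whole.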
